A study of Homo sapiens with 9 samples.

Results

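SATB1, HMGA1, HMGA2, IGF2BP2 and IGF2BP3 encode chromatin and RNA-binding proteins that are associated with embryonic and cancer cells. The 5 genes were chosen by symbol, with their levels in these arrays already known, from 11963 genes that had a probe set of 1 gene symbol. They were read by 8 probe sets of 22215 tested: 1 each for SATB1, HMGA2 and IGF2BP2, 2 for HMGA1 and 3 for IGF2BP3. The samples were total RNA of the human neuroblastoma cell line IMR-32 on single-channel oligonucleotide arrays. There were 3 arrays each of a line with stable expression of 69-kDa choline acetyltransferase (69CHAT), a line with stable expression of its 82-kDa form (82CHAT) and cells labelled wild type (WT), and the series' design text calls them biological replicates. The study asked which genes each form of this enzyme, which makes acetylcholine, changes. The transgenes' promoter and the number of clones per line were not stated in the labels. As 1 line carried each form, an effect of the form and a difference between lines cannot be told apart.

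SATB1 folds chromatin into loops by binding AT-rich DNA and recruits histone-modifying complexes there. HMGA1 and HMGA2 are small proteins with AT-hooks that bend DNA and help transcription factors assemble. HMGA2 is abundant in the embryo, is low in most adult tissues and returns in many tumours. IGF2BP2 and IGF2BP3 belong to a family that binds mRNAs, IGF2 and MYC among them, and governs their stability and translation. IGF2BP3 is called oncofetal because it is made in the embryo and again in cancers. HMGA2 and the IGF2BP genes are among the best known targets of the let-7 microRNAs, which LIN28 proteins keep from maturing.

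Values are RMA intensities on a linear scale, and differences between groups are differences of mean log2 intensity. The lower quartile of an array lay between 55.9 and 62.5, and values near it are treated here as close to background. Because the levels against WT were known when the genes were chosen, those differences are described without a test. Both comparisons with WT use the same 3 WT arrays.

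The arrays labelled WT differed widely from both lines, and 26.2% of probe sets passed limma's test in 69CHAT and 26.8% in 82CHAT against WT. Over 13 measured neuroblastoma markers the summed intensity was 13073 to 22035 in 69CHAT and 16234 to 23618 in 82CHAT, against 1986 to 2496 in WT, and 10 markers rose in each line. Over 9 epithelial markers it was 433 to 493 in 69CHAT and 445 to 517 in 82CHAT, against 6380 to 7211 in WT, and 7 fell in each line. KRT19, EPCAM, CDH1 and DSP read under 55.9 on every array of both lines. TH, a neuroblastoma marker, read under 55.9 on every array of the lines and of WT. Over 11 mesenchymal markers the sum was 5401 to 8511 in 69CHAT and 5281 to 7573 in 82CHAT, against 13454 to 14728 in WT. There was 1 rise and 3 falls in 69CHAT and 1 rise and 4 falls in 82CHAT. Of all genes, 11.7% rose and 17.7% fell in 69CHAT, and 11.8% and 18.5% in 82CHAT. The median log2 difference of these markers was only -0.16 in 69CHAT and -0.06 in 82CHAT, so the sum does not stand for most of them. Of 3 Schwann markers 1 fell in each line, and 0 of 4 lymphoid markers passed. MYCN, amplified in IMR-32, read 4181 to 5947 in 69CHAT and 4301 to 6118 in 82CHAT by its brightest probe set, against 62.5 to 120 in WT. The WT label is therefore in doubt, and every difference from WT below is a difference from these arrays. CHAT read 175 to 256 in 69CHAT and 423 to 1067 in 82CHAT, against 114 to 148 in WT, and passed in 82CHAT (limma adjusted p = 0.000570) but not in 69CHAT (0.226). The part of these marker differences in the results below was not tested, and in bulk RNA fewer cells of a type cannot be told apart from less RNA per cell.

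SATB1 and HMGA2 gave the largest differences from WT among the 5 genes, in opposite directions. SATB1 read 1596, 2595 and 2405 in 69CHAT and 2194, 2427 and 2466 in 82CHAT, against 339, 469 and 394 in WT. Every array of the lines stood above every WT array, with the lowest line array at replicate 1 of 69CHAT. Its log2 level was 11.07 ± 0.38 in 69CHAT and 11.20 ± 0.09 in 82CHAT, against 8.63 ± 0.23 in WT (SD, n = 3 each). The log2 difference from WT was 2.44 (SE 0.19) in 69CHAT and 2.57 (SE 0.19) in 82CHAT, where 152 and 128 of all probe sets had a higher one.

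HMGA2 read 66.2, 68.1 and 63.6 in 69CHAT and 59.8, 62.2 and 53.8 in 82CHAT, against 968, 1140 and 1115 in WT. The line arrays lay at about the lower quartile of their arrays, so the lines show little HMGA2 signal above background and the fold is approximate. The log2 difference was -4.02 (SE 0.09) in 69CHAT and -4.20 (SE 0.09) in 82CHAT. Only 34 and 27 of all probe sets had a lower difference in those contrasts. On the log2(intensity + 16) scale the differences were -3.73 and -3.87.

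HMGA1, the paralogue of HMGA2, was modestly higher in the lines. Its brighter probe set read 3384, 2718 and 2941 in 69CHAT and 2879, 3030 and 3235 in 82CHAT, against 2076, 2209 and 2454 in WT. The 6 line arrays did not overlap the WT arrays, and the log2 differences were 0.42 (SE 0.11) in 69CHAT and 0.44 (SE 0.11) in 82CHAT. The dimmer probe set, whose probes can match several genes by the suffix of its name, read 567, 524 and 525 in 69CHAT and 859, 553 and 594 in 82CHAT, against 334, 344 and 445 in WT. Both probe sets thus ran the same way, and replicate 1 of 82CHAT was the highest array of the dimmer one. Its log2 differences were 0.53 (SE 0.17) in 69CHAT and 0.82 (SE 0.17) in 82CHAT.

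Within an array, the log2 ratio of the brightest HMGA1 probe set to that of HMGA2 gives the unequal change of the paralogues, although its absolute value depends on the probes. It was 5.51 ± 0.18 in 69CHAT and 5.70 ± 0.18 in 82CHAT, against 1.06 ± 0.10 in WT (SD, n = 3 each). The ranges were 5.32 to 5.68, 5.59 to 5.91 and 0.95 to 1.14 in that order. The shift was 4.44 in 69CHAT and 4.64 in 82CHAT, where HMGA2 differed by -4.02 and -4.20 and HMGA1 by 0.42 and 0.44. As HMGA2 read close to background in the lines, its background level sets the ratios there, and the size of the shift is approximate.

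**Figure D1:**
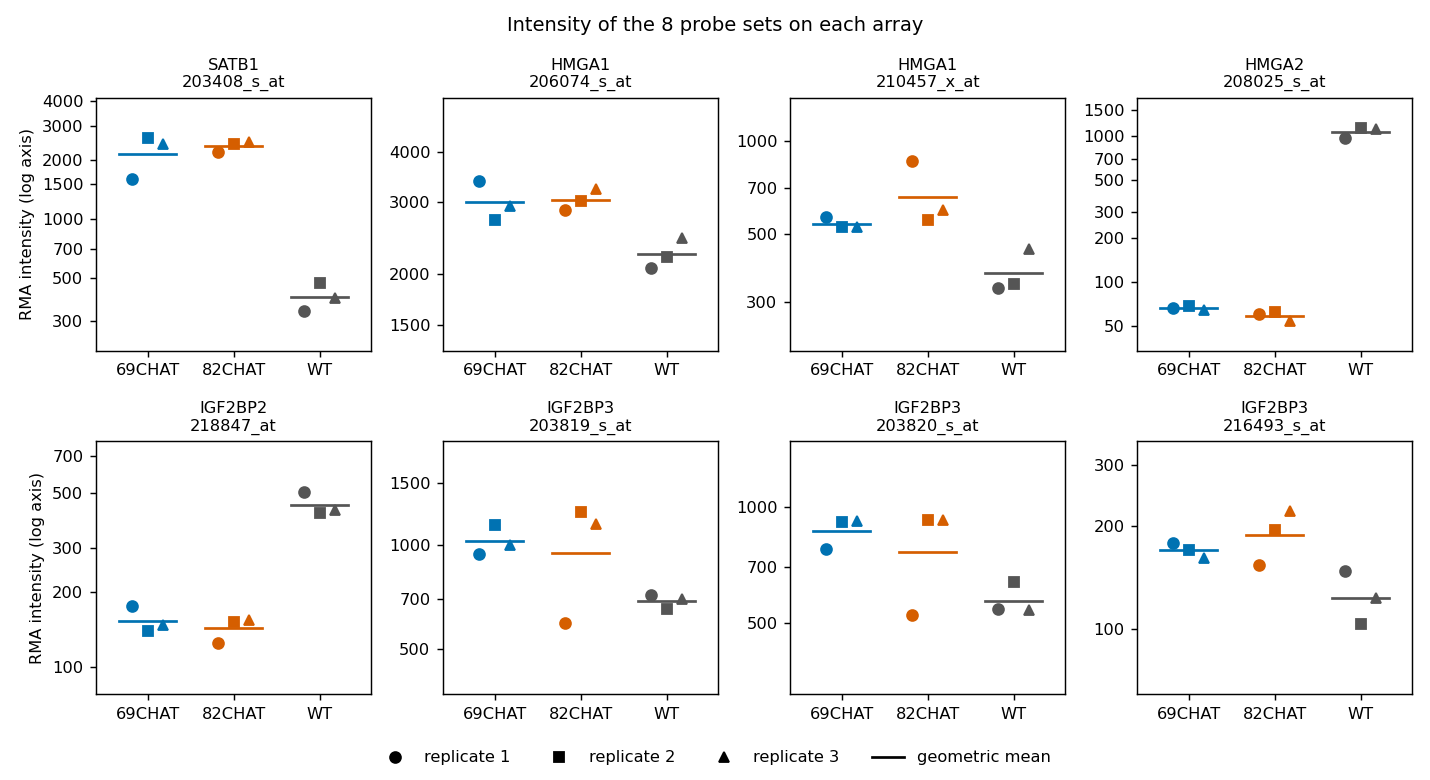
RMA intensity (log axis) of the 8 probe sets on each of the 9 arrays, grouped as 69CHAT, 82CHAT and WT, with a symbol for each replicate number and a line at the geometric mean of each group. SATB1 and both HMGA1 probe sets are higher on all line arrays than on all WT arrays, HMGA2 and IGF2BP2 are lower, and replicate 1 of 82CHAT falls below the WT arrays for the 2 brighter IGF2BP3 probe sets.

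The RNA-binding genes also parted on average. IGF2BP2 read 176, 140 and 148 in 69CHAT and 125, 152 and 155 in 82CHAT, against 502, 416 and 425 in WT. All line arrays lay below all WT arrays and above the lower quartile, so a signal over background remained in the lines. The log2 differences were -1.54 (SE 0.13) in 69CHAT and -1.64 (SE 0.13) in 82CHAT.

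IGF2BP3 was higher on most line arrays. Its brightest probe set read 941, 1136 and 999 in 69CHAT and 595, 1241 and 1148 in 82CHAT, against 715, 655 and 697 in WT. Replicate 1 of 82CHAT stood below every WT array, while the other line arrays stood above them. The log2 differences were 0.57 (SE 0.24) in 69CHAT and 0.46 (SE 0.24) in 82CHAT, and leaving out replicate 1, 2 or 3 of 82CHAT gave 0.79, 0.26 or 0.32 in 82CHAT. The second probe set read 777, 912 and 922 in 69CHAT and 522, 925 and 928 in 82CHAT, against 541, 637 and 539 in WT. It repeated the low value of that array, which again lay below all WT arrays, and gave log2 differences of 0.61 (SE 0.21) in 69CHAT and 0.42 (SE 0.21) in 82CHAT, with 0.70, 0.29 or 0.28 in 82CHAT when its replicate 1, 2 or 3 was left out. The dimmest probe set read 178, 170 and 161 in 69CHAT and 154, 194 and 220 in 82CHAT, against 147.3, 103.7 and 123.4 in WT, and here replicate 1 of 82CHAT was just above the WT arrays. Its log2 differences were 0.46 (SE 0.16) in 69CHAT and 0.60 (SE 0.16) in 82CHAT.

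The log2 ratio of the brightest IGF2BP3 probe set to that of IGF2BP2 within an array was 2.73 ± 0.30 in 69CHAT and 2.73 ± 0.42 in 82CHAT, against 0.63 ± 0.10 in WT (SD, n = 3 each). The lowest line value, 2.25 in 82CHAT, lay above the highest WT value, 0.72. The shift was 2.11 in 69CHAT and 2.10 in 82CHAT, most of it from IGF2BP2. IGF2BP2 differed by -1.54 and -1.64 and IGF2BP3 by 0.57 and 0.46. IGF2BP1, the third member of the family, had no probe set of 1 symbol.

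Promoter sequence from RefSeq (GRCh38.p14, 250 bases before to 50 after the start) is shown for the IGF2BP pair, whose levels ran in opposite directions. Table entries matched 4 of the 5 genes, and HMGA2 is named only. Capitals mark CACGTG, the E-box read by MYC-family proteins, and GGGCGG, the GC box read by SP-family proteins, on either strand, where GC boxes can overlap each other.
IGF2BP3, chr7:23470442-23470741, minus strand: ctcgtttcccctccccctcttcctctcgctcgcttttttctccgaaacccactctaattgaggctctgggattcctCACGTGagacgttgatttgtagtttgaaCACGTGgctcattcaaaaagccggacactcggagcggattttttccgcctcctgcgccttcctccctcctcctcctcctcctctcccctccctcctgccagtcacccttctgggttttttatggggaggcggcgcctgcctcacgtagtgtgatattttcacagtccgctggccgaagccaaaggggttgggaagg
IGF2BP2, chr3:185824993-185825292, minus strand: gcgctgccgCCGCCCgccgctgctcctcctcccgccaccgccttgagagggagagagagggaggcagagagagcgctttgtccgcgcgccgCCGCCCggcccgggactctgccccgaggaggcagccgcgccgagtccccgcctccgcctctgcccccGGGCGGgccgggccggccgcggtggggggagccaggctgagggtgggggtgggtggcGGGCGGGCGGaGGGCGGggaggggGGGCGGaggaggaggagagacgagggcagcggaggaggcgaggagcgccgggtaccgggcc
The IGF2BP3 window holds 2 E-boxes, which start 174 and 146 bases before the start site, and 0 GC boxes. The IGF2BP2 window at this start, the first of 2 listed, holds 0 E-boxes and 7 GC boxes, with 80.7% G and C against 56.3% in IGF2BP3. Of 35116 promoter windows of this length, 7.26% hold an E-box, 0.664% hold 2 or more and 45.0% hold a GC box, and the median G and C content is 58.7%. The second IGF2BP2 window, 4 SATB1 windows and 2 HMGA1 windows held 0 E-boxes. These letters are a description and say nothing of binding in these cells.

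Over the 8 probe sets, 6 were higher and 2 lower on all 69CHAT arrays than on all WT arrays, beside 22.5% and 21.2% of all probe sets. In 82CHAT 4 were higher, 2 lower and 2 overlapped, beside 20.9% and 21.3% of all probe sets. These counts describe genes chosen for such differences.

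**Figure D2:**
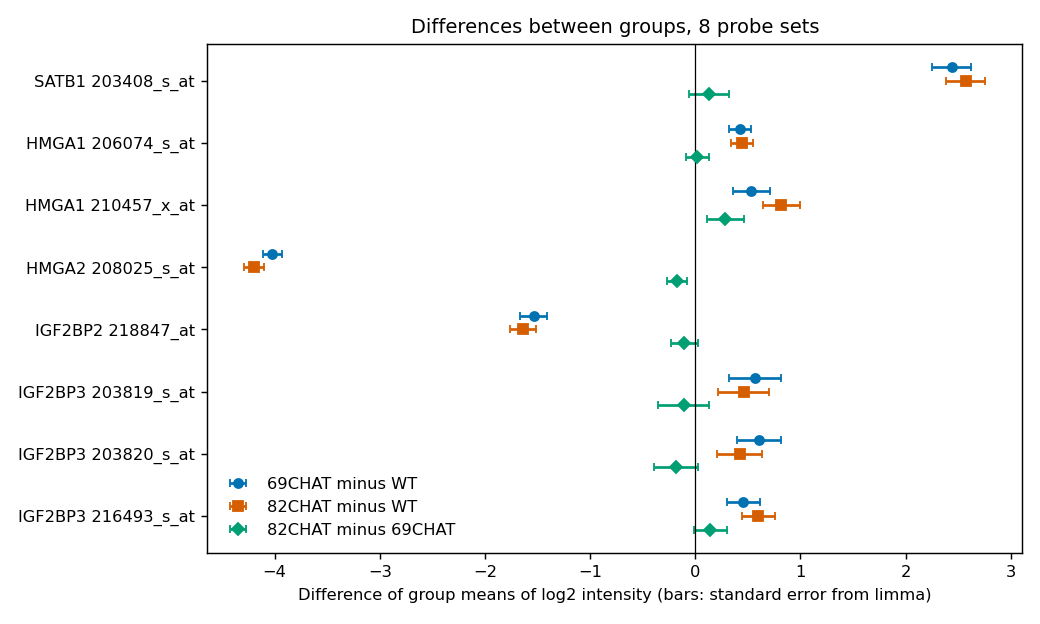
Differences of mean log2 intensity for the 8 probe sets, with bars of 1 standard error from limma, for 69CHAT minus WT (circles), 82CHAT minus WT (squares) and 82CHAT minus 69CHAT (diamonds). The differences from WT run from -4.20 for HMGA2 to 2.57 for SATB1, and those between the lines stay between -0.18 and 0.29.

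The comparison of the lines asks whether the 2 enzyme forms went with different levels of these genes, and it was tested. None of the 8 probe sets passed in 82CHAT against 69CHAT (limma adjusted p = 0.9999 for each), and 0% of all probe sets did, while 733 (3.3%) had an unadjusted p under 0.05. SATB1 differed by 0.13 on the log2 scale (95% interval -0.30 to 0.56) and HMGA2 by -0.17 (-0.38 to 0.04). HMGA1 differed by 0.02 (-0.22 to 0.26) by its brighter and by 0.29 (-0.11 to 0.68) by its dimmer probe set. IGF2BP2 differed by -0.10 (-0.39 to 0.19). For IGF2BP3 the 3 probe sets gave -0.11 (-0.67 to 0.45), -0.18 (-0.67 to 0.30) and 0.14 (-0.22 to 0.50), so their direction was not shared. These intervals still allow differences of up to 0.68 in size, and a missed threshold does not show that the lines were alike. CHAT itself read 423 to 1067 in 82CHAT against 175 to 256 in 69CHAT. Its log2 difference of 1.97 did not pass either (limma adjusted p = 0.704), so the fit could miss large differences between the lines. HMGA2 was the 1 probe set of the 8 whose arrays did not overlap between the lines, with 53.8 to 62.2 in 82CHAT against 63.6 to 68.1 in 69CHAT, close to background in both. Of all probe sets 3.66% were lower without overlap and 3.18% higher.

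The replicate 1 arrays deviated from their group means together. Deviations cancel within a group, so replicates 2 and 3 stood opposite on balance by construction. The genes differed in how far replicate 1 stood from the others. The brightest IGF2BP3 probe set on replicate 1 of 82CHAT was at 0.50 of the geometric mean of replicates 2 and 3, against 0.88 in 69CHAT and 1.06 in WT. The second was at 0.56, 0.85 and 0.92 in that order. SATB1 on replicate 1 was at 0.90 in 82CHAT and 0.64 in 69CHAT, against 0.79 in WT. For HMGA2 these ratios were 1.03, 1.01 and 0.86, so its replicate 1 stood close to the others in the lines.

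The let-7 microRNAs were not measured by these arrays. Their sequences are shown because HMGA2 and the IGF2BP genes are known as their targets, with the seed (bases 2 to 8) in capitals.
let-7a-5p: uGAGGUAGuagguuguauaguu
let-7d-5p: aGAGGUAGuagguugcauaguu
let-7i-5p: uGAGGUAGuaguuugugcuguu
All 9 mature names of the family in RefSeq, miR-98-5p included, share this seed. In these arrays HMGA2 and IGF2BP2 were lower and IGF2BP3 on average higher in the lines than in WT.

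Related genes were followed in 8 lists, with 1 probe set a gene, and a gene was called where limma's adjusted p over all probe sets was under 0.05. Of all 11963 genes, 11.7% rose and 17.7% fell in 69CHAT against WT, and 11.8% and 18.5% in 82CHAT. With the replicate number as a block 17.4% rose and 22.9% fell in 69CHAT, and 18.3% and 23.6% in 82CHAT, and block counts of the lists below are to be read against these shares. The median log2 difference over all genes was 0.05 in each. Some genes stand in several lists, such as CCND1 and MYC. Between the lines 0 genes of these lists passed.

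Of 10 measured genes of LIN28 and let-7 processing, 2 rose and 1 fell in 69CHAT, with a median log2 difference of -0.08. In 82CHAT 2 rose and 0 fell, with a median of -0.01. With the replicate block 3 rose and 2 fell in 69CHAT, and 4 rose and 1 fell in 82CHAT. LIN28A, which binds let-7 precursors, read 35.99 to 39.99 on all 9 arrays, under the lower quartile, and LIN28B had no probe set of 1 symbol. TARBP2, a partner of Dicer, rose by 0.35 in 69CHAT and 0.39 in 82CHAT on the log2 scale (limma adjusted p = 0.0148 and 0.00978). HNRNPA1, an RNA-binding protein that acts on some microRNA precursors, rose by 0.91 and 0.87 (0.000922 and 0.00119) by its brightest probe set, while the dimmest of its 3 did not pass.

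Of 23 measured let-7 targets outside the 5 genes, 5 rose and 6 fell in 69CHAT (median -0.13), and 6 rose and 6 fell in 82CHAT (median -0.07). The replicate block gave 5 rises and 9 falls in 69CHAT, and 6 rises and 7 falls in 82CHAT. CCND2, a cyclin of the G1 phase, read 30.3 to 37.2 in 69CHAT and 28.5 to 34.1 in 82CHAT, against 574 to 773 in WT. Its log2 differences were -4.40 and -4.44 (limma adjusted p = 1.75e-07 and 1.61e-07), and its other 2 probe sets fell by less, with -1.24 and -1.08 in 69CHAT. The line levels of CCND2, MYC and FAS lay under the lower quartile, so the sizes of their differences are limited by background. MYC fell, at 33.01 to 35.92 in 69CHAT and 32.4 to 34.0 in 82CHAT, against 124 to 233 in WT (log2 differences -2.46 and -2.49, adjusted p = 5.55e-05 and 5.19e-05). MYCN, its relative, rose by 5.83 and 5.89 (adjusted p = 9.78e-07 and 9.44e-07) by its brightest probe set. The other 2 MYCN probe sets rose by less, with 4.81 and 3.43 in 69CHAT. FAS, a death receptor, had log2 differences of -1.38 and -1.46 (adjusted p = 8.77e-05 and 6.32e-05) by its brightest probe set. Its 4 probe sets ran from -1.88 to -0.58 in 69CHAT. The list therefore held a pair of MYC genes that differed far from WT in opposite directions. Its cyclins parted too, as CCND2 fell while CCND1 rose by 1.93 in 69CHAT and 2.33 in 82CHAT.

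Of 17 measured mRNAs described as bound by IGF2BP proteins, 1 rose and 6 fell in each line, with medians of -0.44 in 69CHAT and -0.38 in 82CHAT. The medians were -0.17 and -0.12 with dim probe sets left out, -0.30 in 69CHAT without its replicate 1 and -0.12 in 82CHAT without its replicate 1. With the replicate block 1 rose and 8 fell in 69CHAT, and 3 rose and 7 fell in 82CHAT. Beside MYC, the falls included ABCB1, a drug efflux pump (log2 differences -2.33 and -2.40, limma adjusted p = 1.14e-05 and 9.62e-06) that read under the lower quartile on all line arrays, and LAMB2, a laminin chain (-0.76 and -0.92, 0.00173 and 0.000596). PDPN, a membrane glycoprotein, had -1.09 and -0.96 (0.00105 and 0.00220). It read 54.7 to 61.7 in 69CHAT and 54.8 to 81.1 in 82CHAT, mostly close to background, so these sizes are approximate. The dimmest of the 3 PDPN probe sets lay at 29.3 to 31.5 on all arrays. The gene that rose was CCND1, a cyclin, by 1.93 in 69CHAT and 2.33 in 82CHAT (adjusted p = 0.00915 and 0.00354). IGF2 itself had no probe set of 1 symbol and is not reported here.

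Of 14 measured genes of IGF2BP granules and the m6A writers, 1 rose and 3 fell in 69CHAT (median -0.06) and 1 rose and 4 fell in 82CHAT (median -0.03). Without replicate 1 of the line the medians were 0.14 in 69CHAT and 0.23 in 82CHAT. With the replicate block 3 rose and 5 fell in each. ELAVL1, an mRNA-stabilising protein, read 734 to 873 in 69CHAT and 611 to 981 in 82CHAT, against 2320 to 2822 in WT (log2 differences -1.69 and -1.78, limma adjusted p = 0.000137 and 0.000100). METTL3, the m6A methyltransferase, had -1.01 and -0.61 (0.00291 and 0.0333), with its other probe set not passing in 69CHAT, and STAU1, a double-stranded RNA binder, -0.58 in each (0.0212 and 0.0205), although 2 of its 4 probe sets did not pass. SYNCRIP rose by 0.67 in 69CHAT and 0.81 in 82CHAT (0.0369 and 0.0159) by its brightest probe set, but its 5 probe sets ran from -0.12 to 1.61 in 69CHAT.

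Of 21 measured genes described as linked to HMGA proteins, 7 rose and 3 fell in 69CHAT and 6 rose and 3 fell in 82CHAT. The replicate block gave 8 rises and 4 falls in 69CHAT, and 9 rises and 3 falls in 82CHAT. The list gives no expected direction for its genes. The median was 0.27 in each line, and 0.44 and 0.53 with dim probe sets left out. SNAI2, a factor of the neural crest and of mesenchymal change, read 309 to 703 in 69CHAT and 295 to 1027 in 82CHAT, against 55.7 to 79.3 in WT. TWIST1, of the same kind, rose by 2.72 and 2.88 on the log2 scale (limma adjusted p = 7.13e-05 and 5.18e-05), and SNAI2 by 2.83 and 3.32 (0.00236 and 0.000991). KIT, a receptor kinase, rose by 1.94 and 1.93 (0.000323 and 0.000332). CDKN2A, a cell cycle inhibitor, fell, with 176 to 224 in 69CHAT and 178 to 244 in 82CHAT against 1331 to 1462 in WT (log2 differences -2.77 and -2.68, adjusted p = 2.79e-06 and 3.35e-06), while the dimmest of its 3 probe sets lay at 30.9 to 37.8 on all arrays. These genes ran both ways, and their link to the lower HMGA2 or the higher HMGA1 was not tested.

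Of 16 measured CUT-class genes and reported partners of SATB1, 3 rose and 2 fell in each line. The medians were 0.07 in 69CHAT and 0.05 in 82CHAT, close to all genes. The replicate block gave 4 rises and 2 falls in each line. BCL11B, a zinc finger repressor, read 267 to 464 in 69CHAT and 246 to 525 in 82CHAT, against 68.6 to 93.4 in WT (log2 differences 2.26 and 2.25, limma adjusted p = 0.000695 and 0.000720). PIAS1, a SUMO ligase, rose by 1.06 and 0.78 (0.000349 and 0.00195). HDAC1, the deacetylase that SATB1 recruits, was at 272 to 304 in 69CHAT and 212 to 390 in 82CHAT, against 1579 to 1940 in WT (log2 differences -2.61 and -2.47, adjusted p = 4.09e-05 and 5.55e-05). KAT2B, an acetyltransferase reported with SATB1, had -1.73 and -1.68 (1.42e-05 and 1.72e-05), near background in the lines.

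Of 12 measured HMG-box and HMGN genes, the other high mobility group families, 1 rose and 4 fell in 69CHAT (median -0.27), and 1 rose and 3 fell in 82CHAT (median -0.20). With the replicate block 3 rose and 6 fell in 69CHAT, and 3 rose and 5 fell in 82CHAT. HMGN2, a nucleosome-binding protein, read 4047 to 4714 in 69CHAT and 4429 to 4707 in 82CHAT, against 8092 to 8522 in WT (log2 differences -0.91 and -0.87, limma adjusted p = 6.40e-05 and 8.38e-05). HMG20B, a subunit of a histone demethylase complex, had -0.73 and -0.65 (0.00237 and 0.00474), while the dimmest of its 3 probe sets did not pass. UBTF, which drives ribosomal RNA transcription, rose by 0.73 and 0.78 (0.00300 and 0.00211). HMGN5 had -1.42 and -1.51 (0.000101 and 6.98e-05) at 20.0 to 74.8 over all arrays, near background, and its other probe set did not pass.

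Of 16 other oncofetal and embryonic genes, 3 rose and 5 fell in 69CHAT, and 2 rose and 6 fell in 82CHAT, with medians of 0.00017 and 0.07. The replicate block gave 3 rises and 6 falls in each line. With dim probe sets left out, so that fewer of the genes were counted, the medians were -0.52 and -0.78. TPBG, the oncofetal trophoblast glycoprotein, read 64.8 to 114 in 69CHAT and 50.8 to 306 in 82CHAT, where replicate 1 was the highest, against 1157 to 1323 in WT (log2 differences -3.94 and -3.55, limma adjusted p = 0.000940 and 0.00169). The lowest TPBG values of the lines lay close to background, so these sizes are approximate. GPC3, an oncofetal proteoglycan, had -1.97 and -2.13 (5.84e-05 and 3.72e-05), and PLAC1, a placental gene, -0.63 in each (0.00260 and 0.00268). MEST, an imprinted gene of mesoderm, rose by 1.55 and 2.25 (0.00204 and 0.000256). Oncofetal genes thus stood on both sides, as the IGF2BP pair did on average.

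**Figure D3:**
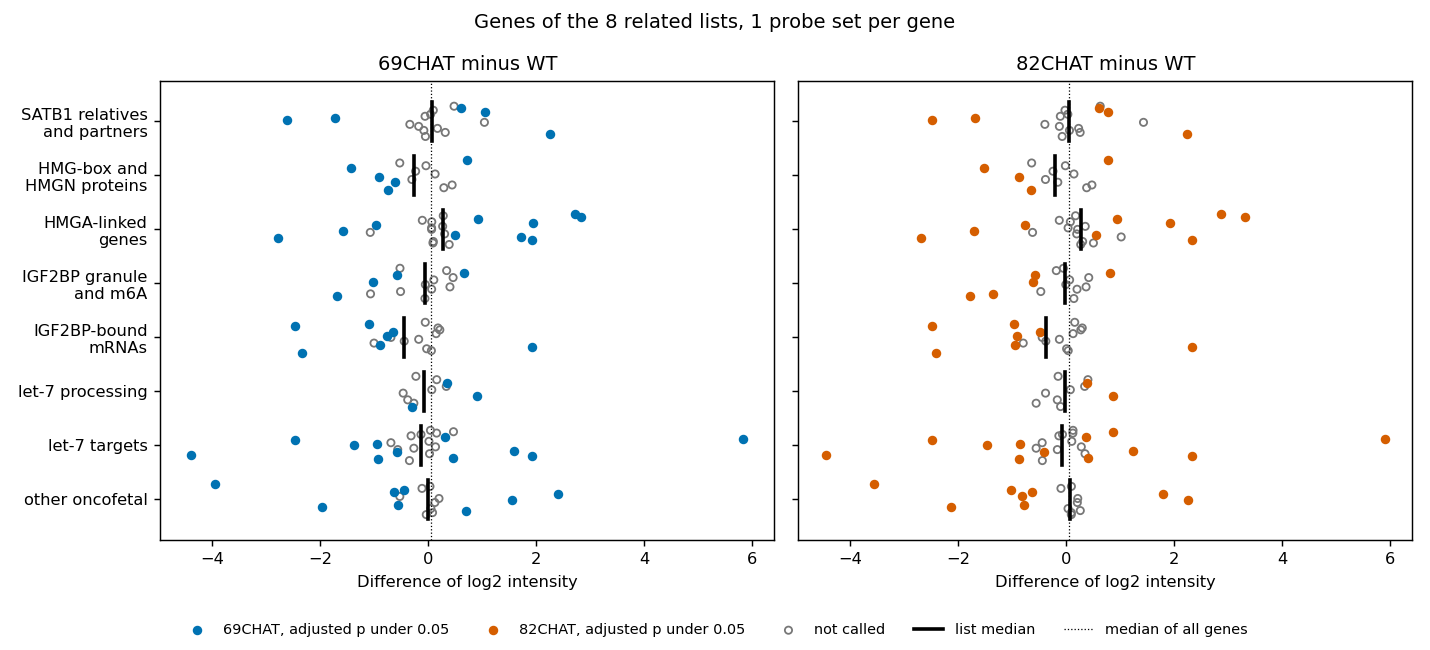
Difference of log2 intensity from WT for each measured gene of the 8 lists, in 69CHAT on the left and 82CHAT on the right, with filled points for adjusted p under 0.05, a black bar at the list median and a dotted line at the median of all genes (0.05). Called genes lie on both sides of 0 in all 8 lists in 69CHAT, and in 82CHAT in all except the list of LIN28 and let-7 processing, which has 0 falls, with the lists' medians between -0.44 and 0.27.

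The genes with the closest profiles were found by the root mean square difference from the brightest probe set of each gene over the 9 arrays, after each profile was centred on its own mean log2. Since the groups differ so widely, this likeness mostly ranks how far WT stands from the lines. Closest to SATB1 were BEX1 (0.11), SIX2 (0.14) and GPR19 (0.17). Closest to HMGA2 were GATA6 (0.076), DLX2 (0.12) and S100A11 (0.13), all of them high in WT, with GATA6 at 19.6 to 20.7 in 69CHAT and 18.9 to 20.4 in 82CHAT against 316 to 357 in WT. IGF2BP2 ran closest to NME3 (0.091), HLA-G (0.10) and HLA-F (0.11), where the HLA probe sets can match several genes. HMGA1 ran closest to SART1 (0.068), CASKIN2 (0.077) and CEP97 (0.082). IGF2BP3 ran closest to BDH2, U2SURP and HADHA (0.12, 0.12 and 0.13), which share its low replicate 1 of 82CHAT. Among the 5 genes themselves the closest pair was HMGA1 and IGF2BP3 (0.30) and the farthest SATB1 and HMGA2 (3.13).

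**Figure D4:**
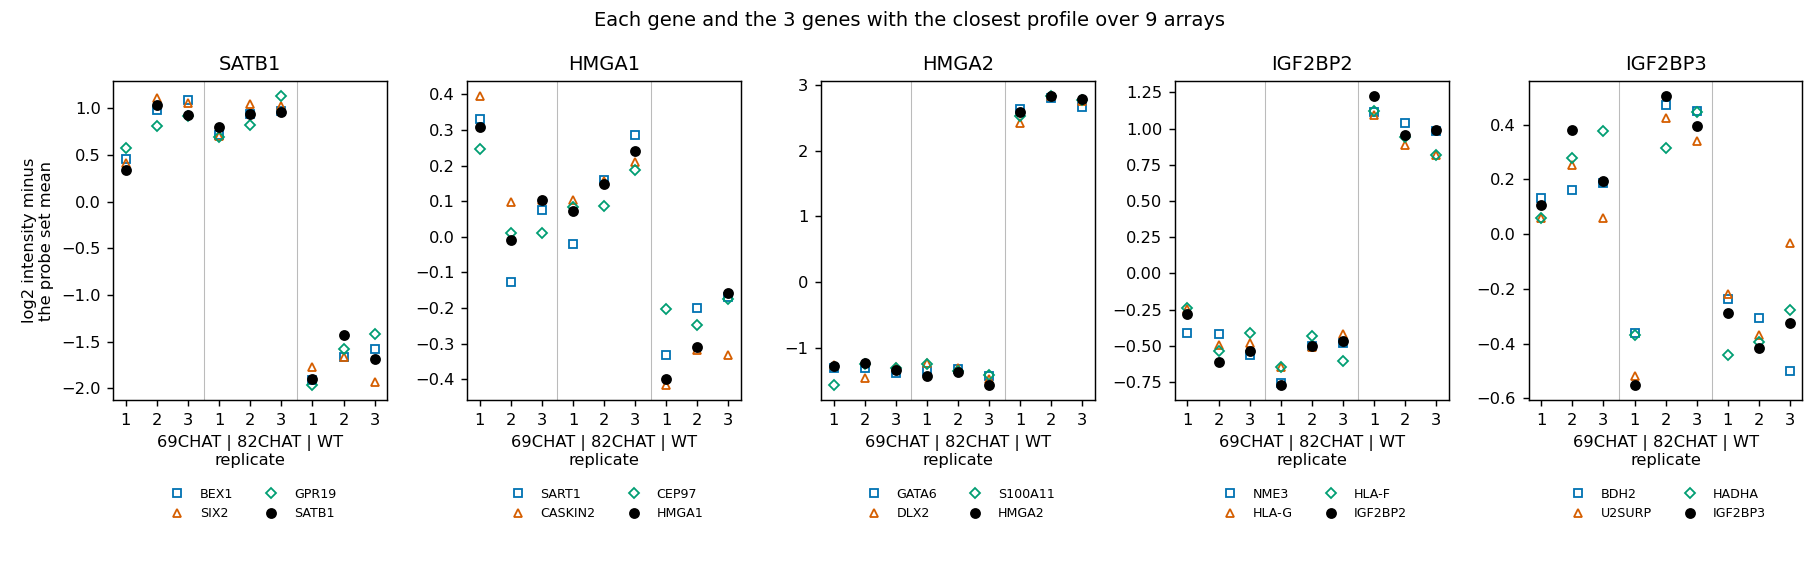
Log2 intensity minus the mean of the probe set on each of the 9 arrays (replicates 1 to 3 of 69CHAT, 82CHAT and WT, left to right) for each of the 5 genes (black) and the 3 genes closest to it (open symbols). The HMGA2 group has the widest gap between the lines and WT (-4.02 and -4.20 for HMGA2) and the HMGA1 group a narrow one (0.42 and 0.44 for HMGA1), with replicate 1 of 82CHAT low in the IGF2BP3 group.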

How the data were processed

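The authors deposited intensities on a linear scale for 22283 probe sets on 9 arrays, made with RMA per the submitters' processing notes. Its version and the step from log2 to a linear scale were not stated there. After 68 control probe sets were set aside, 22215 were tested. The platform annotation gave 1 symbol to 19065, several to 1043 and none to 2107, and only the first were named. Groups and replicate numbers came from the sample titles. Nothing in the sources says that a number marks a shared day, but deviations from group means correlated at 0.278 to 0.573 in all 9 same-numbered pairs, so a fit with the replicate number as a block was run. Between groups, replicate 2 against replicate 3 gave 0.209 to 0.475 too, and replicate 1 against either gave -0.594 to -0.28. As deviations cancel within a group, these negative values follow on balance from the positive ones of replicate 1. The check sets replicate 1 apart and does not separate 2 from 3. Log2 intensities, with no pseudocount, were fitted with limma 3.58.1 in R 4.3.3 (3 group means, all 9 arrays, eBayes, two-sided, Benjamini-Hochberg over 22215). The fit was tested on simulated data. The genes, lists and tests were chosen with earlier results of these data known. Each list named its called genes with the smallest adjusted p in both contrasts with WT (up to 4), or 2 with the largest difference where none passed. IGF2BP1, LIN28A, LIN28B, IGF2, MYC, MYCN and CHAT were also looked up. CCND1 was named after its values were seen. Promoter and microRNA sequences are from RefSeq (GRCh38.p14).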

Additional observations from a re-analysis of the deposited data

How the results depend on the processing

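Under the alternatives run (other scaling, a pseudocount of 16, dim probe sets left out, other variance settings, array weights, the 6 arrays compared, the replicate block, replicates 2 and 3 alone and each array left out in turn), the log2 difference from WT of all 8 probe sets kept its sign in both lines. For HMGA2 it was -3.73 in 69CHAT and -3.87 in 82CHAT with the pseudocount, a smaller size by the construction of that scale. IGF2BP2 in 82CHAT was -1.46 in replicates 2 and 3, and IGF2BP3 in 69CHAT 0.69 with array weights; the cause was not tested. In 82CHAT against 69CHAT HMGA2 (-0.22 to -0.11), the dimmer HMGA1 (0.091 to 0.41) and the dimmest IGF2BP3 probe set (0.025 to 0.32) kept their sign under all of these, and the other 5 probe sets did not. SATB1 gave -0.052 with array weights, -0.030 in replicates 2 and 3 and -0.082 to 0.27 with an array left out. HMGA1 (brighter) gave -0.0062 after quantile normalization and -0.051 to 0.11 with an array left out. IGF2BP2 gave 0.085 with array weights and 0.092 in replicates 2 and 3. IGF2BP3 (brightest) gave 0.13 with array weights, 0.16 in replicates 2 and 3 and -0.31 to 0.22 with an array left out, and its second probe set 0.015 in replicates 2 and 3 and -0.32 to 0.094. None of the 8 probe sets passed in 82CHAT against 69CHAT under any of these. Counts over all probe sets were 5818 in 69CHAT and 5948 in 82CHAT against WT, 8107 and 8486 with the replicate block and 9551 and 9506 with array weights. Between the lines the count was 0, and 1704 with array weights, 454 in replicates 2 and 3 and 0 to 36 with an array left out (36 without replicate 1 of 82CHAT, 8 without replicate 1 of 69CHAT). The block changed no call of a member between the lines. The medians of the IGF2BP-bound, IGF2BP partner, HMGA and oncofetal lists depended on dim probe sets or on replicate 1, as given beside them. That of the let-7 targets in 82CHAT (-0.07) was 0.072 with array weights, 0.057 in replicates 2 and 3 and 0.034 without replicate 1 of 82CHAT. For the lists, the median over the probe sets of each gene was also run. It gave 0.096 for the let-7 targets in 82CHAT and 0.096 for the HMGA list in 69CHAT. The HMG-box and HMGN list was then at -0.36 in 69CHAT and the IGF2BP-bound list at -0.15 in 82CHAT. With 3 arrays a group precision is limited, and HMGA2 in the lines sits at signal near background.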
